A study of Mus musculus with 21 samples.

Results

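Dnm3os and 2010111I01Rik are mouse genes whose transcripts carry microRNAs, and Ash1L peaks were called inside both. Chromatin immunoprecipitation with an antibody against Ash1L was followed by sequencing in C2C12 cells, a mouse myoblast line that stops dividing and fuses into myotubes when serum is lowered. The cells had spent 24 hours (day 1) in medium with 2% horse serum, and 3 independent experiments gave the 3 replicates of this single group. All values came from the narrow-peak list called in each replicate and from 1 list in which the 3 had been merged, with positions on mm10. The members were chosen by the measured peaks themselves: they are the merged regions that the authors assigned to either gene, which gave 2 regions for Dnm3os and 11 for 2010111I01Rik, 13 of 259 in all. Both regions of Dnm3os were also assigned to Dnm3, the gene on the other strand. Their positions, widths, scores and support by replicates are therefore descriptions and were not tested.

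A microRNA is cut from a longer transcript, and where that transcript belongs to another gene the gene is called its host. Dnm3os is a noncoding RNA read from the strand opposite to Dnm3, a gene for a dynamin GTPase of membrane fission, and it is the precursor of miR-199a and miR-214, the latter known for acting on the Polycomb methyltransferase Ezh2 in skeletal muscle. 2010111I01Rik, also named Aopep, encodes aminopeptidase O, and its last part holds the cluster of miR-23b, miR-27b and miR-24, of which miR-27b is known for acting on Pax3 and miR-24 for its rise in differentiating myoblasts. Ash1L is a Trithorax-group methyltransferase that acts on lysine residues of histone H3 and is known as an opponent of Polycomb silencing.

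The score of a peak was read as the −log10 of its q-value, so that a higher score stands for a stronger call over the input. A called region could be listed on several rows, 1 for each summit, each row with its own score but without the position of its summit. Replicate 1 held 240 called regions on 779 rows, replicate 2 held 35 on 129 rows, and replicate 3 held 228 on 868 rows. The lists were thus uneven, and replicate 2 was by far the shortest. Their lowest scores were 2.30, 1.30 and 2.38 and their highest were 280.4, 66.3 and 110.8. Read counts are not part of these lists, and the sequencing depth under the calls is unknown.

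Dnm3os lies on the plus strand at chr1:162217623-162225550 and spans 7928 bp, all of it within intron 14 of the longest coding transcript of Dnm3, which runs the other way. The first of its merged regions, chr1:162219154-162220323, was 1170 bp wide. Replicate 1 had a pair of called regions there, of 399 bp at chr1:162219338-162219736 and of 286 bp at chr1:162220012-162220297, each with a single row and a score of 6.83. Replicate 3 had 1 called region that filled the whole stretch with a score of 4.87, and replicate 2 had none. Both called regions of replicate 1 therefore lay inside the one of replicate 3, of which they covered 58.5%.

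The second merged region of Dnm3os, chr1:162221634-162221923, was 290 bp wide and lay 1310 bp further on. It came from replicate 3 alone, with 1 row and a score of 5.22. Together both regions held 1460 bp, or 18.4% of the gene, of which 685 bp were in 2 lists and none in all 3. Among the called regions of its own list, the score of 6.83 took place 157 of 240 in replicate 1, shared with other regions, and the scores of 5.22 and 4.87 took places 170 and 189 of 228 in replicate 3. The calls at Dnm3os thus stood in the lower part of both lists that held them.

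Some of these scores were common values rather than values of their own. A score of 6.83 stood on 33 of the 779 rows of replicate 1, and 5.22 on 33 of the 868 rows of replicate 3. Over both host genes, 4 rows had the first of these scores and 4 rows the other. Order among regions with such scores is therefore not resolved.

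The microRNA genes of Dnm3os flank the peaks and were not overlapped by them. Mir199a-2, at chr1:162217814-162217923, begins 191 bp into the gene and ended 1231 bp before the first region. Mir214, at chr1:162223368-162223477, begins 5745 bp into the gene and started 1445 bp after the second region. The peaks thus occupied the stretch between both microRNA genes. The start of 1 short Dnm3os transcript, at 162219868, lay inside the first region, within the called region of replicate 3 and 132 bp beyond the nearer called region of replicate 1. For the second region the nearest annotated start was that of Mir214 itself.

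What the peaks covered in Dnm3os depends on the transcript. Of its 6 annotated transcripts, 2 are unspliced and hold both regions wholly in their exon, and both of these run over Mir199a-2 and Mir214. The other 4 are spliced, and each has 70 bp of exon in the second region. In the first region their exons took up 0, 16, 36 or 456 bp. In all, 5 of the 6 transcripts overlap Mir199a-2 and 3 overlap Mir214, at least in part. The spliced transcript from 162217839 begins inside Mir199a-2. That from 162217876 also begins inside Mir199a-2, after miR-199a-5p. It ends at 162223393, inside Mir214 but before either mature form of miR-214. No exon of the longest coding Dnm3 transcript met a region, and the nearest start of a coding transcript, one of Dnm3, was 75257 bp from the first region and 73657 bp from the second.

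2010111I01Rik lies on the plus strand at chr13:62964893-63326096 and spans 361204 bp. No other of the 146 genes with an assigned region had more regions than its 11, and by summed width, 11393 bp, it was at place 10. The number depends on how calls are cut: it was 3 with rows within 1000 bp joined and 5 without replicate 3. No order of genes is given for those settings. The 11 regions took up 3.15% of the gene. All 11 fell within intron 12 of the longest coding transcript, which has 15 introns, with the flanking exons ending at 63240331 and starting at 63282142, so that they shared 1 stretch of 41810 bp in the last part of the gene. Exons of other host transcripts took up 739 bp of region 10 and 4 bp of region 11, counted along the gene, and none of the other 9 regions. Within it they formed a first group of 7 and a second group of 4, with a gap of 19075 bp between the groups.

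The first group ran from 63245010 to 63251596, a span of 6587 bp of which regions covered 60.9%. Its 7 regions were 251 to 1383 bp wide and stood 93 to 1202 bp apart. Replicate 1 had 3 called regions in this group, replicate 2 had none and replicate 3 had 6. Both replicates with calls met only in regions 5 and 7, and 842 of the group's 4009 bp were in 2 lists.

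Region 5, chr13:63248915-63250297, was the widest of this group at 1383 bp and had its highest scores. Replicate 1 called its first 861 bp with scores of 8.72 and 5.04 on 2 rows, and replicate 3 its last 1055 bp with scores of 7.78, 4.42 and 9.11 on 3 rows. The calls overlapped by 533 bp, which was 61.9% of that in replicate 1 and 50.5% of that in replicate 3, so their borders were offset. In region 7, chr13:63251211-63251596, the called region of replicate 3, 309 bp with a score of 5.22, lay wholly within the 386 bp of replicate 1, which had a score of 6.83.

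The other 5 regions of the first group rested on 1 list each. Region 4, chr13:63248366-63248616, was from replicate 1 alone with a score of 6.83. Regions 1, 2, 3 and 6 were from replicate 3 alone with scores of 3.64, 4.42, 5.22 and 6.90. The first region, chr13:63245010-63245299, also lay within Gm47586, an unclassified transcript on the same strand. The nearest annotated starts were those of Gm47586 for regions 1 to 5, at 789 to 4694 bp, and of Gm47603 for regions 6 and 7, at 4447 and 3968 bp. No annotated transcription start was inside this group.

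The second group ran from 63270672 to 63279523, a span of 8852 bp of which 83.4% was covered. Most of that was region 10, chr13:63272758-63278815, which at 6058 bp was the widest of the 13 and at place 12 of the 259 by width. It was also the only one of the 13 in all 3 lists. Replicate 1 covered 78.1% of it with 4 called regions on 15 rows, replicate 2 covered 76.7% with a single called region on 5 rows, and replicate 3 covered 81.6% with 3 called regions on 14 rows. The replicates thus covered similar shares of it but cut it into different numbers of pieces.

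The highest score in region 10 was 24.45 in replicate 1, 11.01 in replicate 2 and 43.35 in replicate 3. The called regions with these scores took place 35 of 240, 16 of 35 and 11 of 228 in their lists. By its highest score in any list, region 10 was at place 16 of the 259, and 2010111I01Rik at place 17 of the 146 genes. Dnm3os was at place 109 by the same measure, with 6.83, so the host genes stood far apart in this order.

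The strongest calls shared their borders in 2 replicates. Replicate 1 had a called region of 2953 bp at chr13:63274463-63277415 and replicate 3 one of 2937 bp at chr13:63274462-63277398, so that the starts differed by 1 bp and the ends by 17 bp. On 8 rows the scores of replicate 1 ran from 7.37 to 24.45, with a median of 19.65. On 10 rows those of replicate 3 ran from 15.43 to 43.35, with a median of 24.60. Replicate 2 called chr13:63273089-63277735 as 1 region of 4647 bp, with scores of 1.59, 2.86, 11.01, 7.56 and 8.23. The stretch common to these 3 called regions, chr13:63274463-63277398, was 2936 bp long, or 48.5% of region 10.

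Around this shared stretch the pieces were weaker. Before it, replicate 1 had called regions of 640 bp and 539 bp with highest scores of 11.07 and 15.96, and replicate 3 had 1 of 838 bp with 6.50. After it, replicate 1 had 1 of 602 bp with 8.72, and replicate 3 had 1 of 1170 bp with 8.67. Counting every base of region 10, 1265 bp were in 1 list, 1318 bp in 2 and 3475 bp, or 57.4%, in all 3. Outside region 10, no base of either host gene was in more than 2 lists.

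Regions 8, 9 and 11 of 2010111I01Rik flanked the wide one and came from replicate 3 alone. Region 8, chr13:63270672-63271034, was 363 bp wide with a score of 3.64, region 9, chr13:63271503-63272128, was 626 bp wide with a score of 5.67, and region 11, chr13:63279187-63279523, was 337 bp wide with a score of 5.94. The gaps between neighbours in this group were 468, 629 and 371 bp. A host transcript begins between regions 9 and 10, at 63272501, which is 373 bp after region 9.

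Several annotated transcripts begin inside region 10. There were 7 starts, 6 of them of noncoding transcripts of 2010111I01Rik itself and 1 of Gm47585, an unclassified transcript on the same strand. Of the host starts, 5 stood near the beginning of the region, from 63272816 to 63273258, and the sixth was near its far end at 63278670. Replicate 1 had 6 of the 7 starts within a called region, replicate 2 had 3 and replicate 3 had 2. The shared stretch itself held 0 starts and 0 bp of host exon. It began 863 bp after the start of Gm47585 and ended 1272 bp before the next start. The single start inside region 11 was that of Gm47602, an unclassified transcript on the minus strand that also reaches into region 10.

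The microRNA genes inside 2010111I01Rik lie beyond the peaks, downstream along the gene. Mir23b is at chr13:63300484-63300557, Mir27b at chr13:63300712-63300784 and Mir24-1 at chr13:63301208-63301275, with Mir3074-1 on the minus strand over Mir24-1 at chr13:63301199-63301283. Since 2010111I01Rik is on the plus strand, Mir3074-1 lies within its bounds but is not carried by its transcripts. The cluster spans 800 bp. Region 11 ended 20961 bp before Mir23b, region 10 ended 21669 bp before it, and the stretch shared by the 3 replicates ended 23086 bp before it. Region 1, the farthest, ended 55185 bp before it. None of the 11 regions was thus as near to a microRNA gene of its host as either region of Dnm3os. The hosts differ in length, with 361204 bp for 2010111I01Rik and 7928 bp for Dnm3os, which limits how far a region inside Dnm3os can lie from its microRNA genes.

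Of the 28 annotated transcripts of 2010111I01Rik, 8 run across the whole cluster. A pair of these begin inside region 10, at 63273258 and 63278670, and 1 begins 257 bp before it, at 63272501. The others begin at 63015167, 63015493, 63240029, 63240074 and 63298793, outside all regions. The remaining 4 host transcripts that begin in region 10 end before Mir23b. Fancc, a gene of DNA crosslink repair on the minus strand, was the nearest other gene of the listed neighbours, 5520 bp beyond region 11. It spans chr13:63285043-63497278 and so runs over the whole cluster, on the strand of Mir3074-1. Ptch1, the Hedgehog receptor gene further along, was 228805 bp away.

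Mature microRNAs of the microRNA genes inside both hosts are given with bases 2 to 8, the seed that pairs with target RNAs, in capitals. All 6 microRNA genes matched the RefSeq table of GRCm38.p6, which gave the 10 mature sequences of these genes printed here. Dnm3os carries these 4, of which miR-199a-5p is also made from Mir199a-1 on chromosome 9, and miR-199a-3p is the same sequence as that from Mir199a-1 and as miR-199b-3p from chromosome 2.
miR-199a-5p: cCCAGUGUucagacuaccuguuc
miR-199a-3p: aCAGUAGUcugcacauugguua
miR-214-5p: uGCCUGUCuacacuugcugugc
miR-214-3p: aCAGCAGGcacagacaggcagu

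The cluster in 2010111I01Rik carries miR-23b-3p, miR-3074-1-3p and the following, with miR-27a-3p and miR-24-2-5p of the related cluster on chromosome 8 each placed under a form whose seed it shares. Here miR-24-3p comes from both clusters, miR-27b-3p and miR-27a-3p differ by 1 base outside the seed, and miR-3074-5p comes from the strand opposite to miR-24-3p, which it overlaps by 20 bp.
miR-23b-5p: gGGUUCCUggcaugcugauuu
miR-27b-5p: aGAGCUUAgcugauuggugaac
miR-27b-3p: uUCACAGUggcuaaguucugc
miR-27a-3p: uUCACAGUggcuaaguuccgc
miR-24-1-5p: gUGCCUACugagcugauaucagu
miR-24-2-5p: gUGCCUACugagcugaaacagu
miR-24-3p: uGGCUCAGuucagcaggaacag
miR-3074-5p: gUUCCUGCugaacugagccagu

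The copies at other loci were far from any peak. Mir199a-1 was 1920805 bp from the nearest merged region and Mir199b 12788707 bp. Mir23a, Mir27a and Mir24-2 were 563280, 563114 and 562951 bp from theirs, which was assigned to Nfix. Among the microRNAs with identical or related mature forms, Ash1L regions within 10 kb were found at Dnm3os alone. Dnm3os was chosen because peaks were assigned to it, and the copies were listed without regard to peaks. Nothing is therefore read from this contrast.

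Support by the replicates was counted over the 13 and over all merged regions. A called region from at least 2 lists was present in 4 of the 13, against 47.5% of the 259, and one from all 3 lists in 1 of the 13, against 13.5%. Replicate 1 had a called region in 5 of the 13 (69.5% of all), replicate 2 in 1 (13.5% of all) and replicate 3 in 12 (78% of all). Replicate 3 was the sole source of 8 of the 13, against 30.5% of all. Since peaks chose the members, nothing is read from these shares. Scores of at least 5 in any list were present in 10 of the 13, against 84.9%. The number of regions leaned on replicate 3, without which the other lists merged to 7 regions at both genes in place of 13, and to 5 in place of 11 at 2010111I01Rik. Joining rows within 1000 bp also left 5 regions at both genes.

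Widths and scores of the 13 are given beside the medians of all regions, as a description only. Widths ran from 251 to 6058 bp with a median of 440 bp, beside a median of 469 bp over the 259. Highest scores ran from 3.64 to 43.35 with a median of 5.94, beside 8.72. An annotated start lay inside 3 of the 13, against 23.6% of the 259. Regions outside these genes were distant. On chromosome 1 the nearest one before Dnm3os was assigned to Brinp3, at 15712540 bp. On chromosome 13 the nearest were assigned to Jarid2, 18375115 bp before, and 2410141K09Rik, 3152101 bp after.

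The sequence under the peaks, read from the mm10 reference, held few CpG dinucleotides. The 2 regions of Dnm3os had 32.4% and 32.1% GC, and those of 2010111I01Rik 33.8% to 49.3%, with region 10 at 43.6%. The median over the 13 was 43.6%, beside 47.5% over the 242 merged regions on chromosomes. The ratio of observed to expected CpG was at most 0.51 in any of them, with a median of 0.328 beside 0.417. None of the 13 had both at least 50% GC and a CpG ratio of at least 0.6, a usual rule for a CpG island, against 21.1% of the 242. Stretches of 50 bases that recur in the reference were present in regions 5 and 10 of 2010111I01Rik only, where they made up 1.87% and 0.35% of all such stretches.

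The E-box CANNTG, read the same on both strands, is the motif of MyoD and other basic helix-loop-helix factors of muscle. It was present at least once in 12 of the 13, against 83.1% of the 242. Per kb of region it occurred 1.37 times in Dnm3os, with 1 match in each region, and 6.50 times in 2010111I01Rik, with 74 matches, beside 3.76 over all 242 regions together. The first group of 2010111I01Rik had 7.23 per kb, the second 6.09 and the stretch shared by the 3 replicates 8.17, with 24 matches. Region 8 had none. A match of these 6 letters is a description of the sequence and does not show that a factor was bound. No correction for base composition was made.

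Nearness to a microRNA gene was not common among the Ash1L regions. Both regions of Dnm3os and none of 2010111I01Rik, 2 of the 13, lay within 10 kb of an annotated microRNA gene, against 8.49% of the 259. At Dnm3os this was set by the choice of members. The gene spans 7928 bp and holds Mir199a-2 and Mir214, so any region inside it lies within 10 kb of a microRNA gene. Within 1 kb there were 0 of the 13, against 1.16% of the 259, and within 50 kb there were 8, regions 6 to 11 of 2010111I01Rik included, against 26.3%. At 10 kb, the regions were near 12 of the 2207 microRNA genes in the annotation. Other than Mir199a-2 and Mir214 they were Mir196a-2 and Mir196b in the Hox clusters and Gm24105, each overlapped by a region, and Mir125b-1 at 1592 bp, Mir99a at 2170 bp, Mirlet7c-1 at 2891 bp, Gm22123 at 1132 bp, Mir615 at 9141 bp, Gm44403 at 9512 bp and Gm44484 at 9676 bp.

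Of 39 listed microRNA genes of muscle or related to the hosted ones, 36 matched the annotation. Of these, 3 had a region within 10 kb, namely Mir199a-2, Mir214 and Mir125b-1, beside 12 of the 2207 microRNA genes in the annotation. Mir199a-2 and Mir214 lie in a gene chosen by its peaks, so nothing is read from this count. Mir206 and Mir133b, made in skeletal muscle, were 6368647 and 6372406 bp from their nearest region. The next nearest were Mir222 and Mir221, at 17922 and 18505 bp, and then Mir23b, at 20961 bp. Of the 10 listed genes of both loci and of the dynamin family, Dnm3, Dnm3os and 2010111I01Rik held regions, as the choice of members required, and Fancc had one within 10 kb. Dnm1 and Dnm2, the other dynamin genes, were 12753938 and 1849218 bp from the nearest region.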

How the data were processed

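Ash1L was immunoprecipitated from C2C12 cells on day 1 of differentiation in 3 experiments; the other 18 samples of the series were not used here. The authors used BWA-MEM on trimmed reads (mm10), dropped duplicates and blacklisted stretches, kept unique proper pairs and called narrow peaks in each replicate against the input with MACS2. The submitters' processing notes list cutadapt 1.11, 1.12 and 1.13 and BWA 0.7.15, 0.7.16 and 0.7.17 for replicates 1, 2 and 3, and name MACS3 beside MACS2 for replicate 2. Whether the replicates were run with different versions is not given in the sources used here. The last column of each deposited list has no name and was read as the −log10 q-value of MACS2, because its lowest value in replicate 2, 1.30, lies at the level of the authors' threshold. Replicates 1 and 3 begin at 2.30 and 2.38, and the same meaning was assumed for them. The deposited merged list equals the 3 narrow lists merged, in 259 of 259 regions, although the methods describe merging broad peaks before the assignment to genes.

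Members, neighbours and lists were chosen with earlier results of these data known. Regions assigned by the authors to Dnm3os or 2010111I01Rik were compared with each list at a minimum overlap of 1 bp, and distances run from edge to edge. Genes came from GENCODE M21 and sequence from RefSeq GRCm38.p6. The text names both hosts, Dnm3, genes over a region or with its nearest start, microRNA genes inside the hosts on either strand and any within 10 kb of another region. Muscle microRNAs, copies of the hosted ones and neighbouring or dynamin genes came from lists, and Nfix, Brinp3, Jarid2 and 2410141K09Rik were named after their values were seen, as genes of the nearest regions. The starts of 50-base stretches were counted over 65 reference sequences on both strands. Python 3.11.15, numpy 2.4.6, numba 0.67.0, pysam 0.24.0 and samtools 1.23.1 were used. No test was made. Counting and overlap code was tested on simulated data. Depth is unknown, so no interval is given. Alternatives were a score of at least 5, each replicate left out, rows within 1000 bp joined, 50% coverage, the middle of a region, coding transcripts and limits of 1 and 50 kb.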

Additional observations from a re-analysis of the deposited data

How the results depend on the processing

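No paired analysis was possible because no test was made. Leaving out 1 replicate at a time gave 7 to 16 regions for both genes (2 at Dnm3os each time, 5 to 14 at 2010111I01Rik) and 7763 to 12468 bp covered, 685 to 1460 bp at Dnm3os and 7078 to 11008 bp at 2010111I01Rik. The lowest values came without replicate 3, where the 2 at Dnm3os were both calls of replicate 1 inside its first region and the second region was lost. Leaving out a replicate gave 1 to 6 regions from at least 2 lists, with 0 to 1 at Dnm3os and 1 to 5 at 2010111I01Rik. The highest score ranged from 5.22 to 6.83 at Dnm3os and from 24.45 to 43.35 at 2010111I01Rik. The distance from the nearest region to a hosted microRNA gene ranged from 1231 to 1415 bp at Dnm3os and from 20961 to 21669 bp at 2010111I01Rik.

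Joining rows within 1000 bp left 5 regions, 3 of them at 2010111I01Rik. Rows with a score of at least 5 gave 3 regions of Dnm3os, with 0 of them in 2 lists. This was because the call of replicate 3 in the first region of Dnm3os scored 4.87. The same limit moved the nearest edge at Dnm3os to 1415 bp from a microRNA gene. Measured from the middle of a region, that distance was 1590 bp. With the median over summits in place of the highest, the score of 2010111I01Rik was 24.6. With coding transcripts only, the median distance to a start moved from 722.5 to 74457 bp at Dnm3os and from 2281 to 10584 bp at 2010111I01Rik. Merged regions near a microRNA gene numbered 3 at 1 kb and 68 at 50 kb, of which 0 and 8 were at the host genes. Of 69 alternatives for 18 results, 44 stayed within 1.5 times (counts) or within the spread between lists. The distance from the highest summit was not run, since the lists do not place summits.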
